A study of Homo sapiens with 12 samples.

Results

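Hs578T and BT-20 are human breast cancer cell lines, and their transcriptomes were compared across all genes. The arrays used were of cells given the oligonucleotides labelled CDH13 M and CDH13 U, called M and U below. These were 8 of the 12 arrays of the series, chosen by treatment: 4 arrays of Hs578T against 4 of BT-20. In each line both oligonucleotides were given in set 1 and again in set 2, the labels' number for a biological replicate, so an array of one line has a partner in the other with the same oligonucleotide and set. M and U are double-stranded DNA of one sequence, M methylated at its CpG sites and U not, and both lines received 200 nM for 24 h with the carrier DOTAP in MEM with fetal calf serum. Every array of both lines therefore carries transfected DNA, and untransfected cells of these lines were not analysed here. The 4 other arrays, of cells given the CpG oligonucleotide ODN2006 or its control, were kept apart as a repeat of the line comparison.

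Hs578T stands here for mesenchymal-like breast cancer and BT-20 for epithelial breast cancer of basal kind, and both are known as estrogen receptor-negative. Each kind is represented by 1 line, so nothing below separates a difference between the kinds from one between these 2 lines. In the epithelial-mesenchymal transition, a cell gives up the junctions that hold a sheet together and its apical and basal faces, and takes on an actin-rich, matrix-secreting, motile form. Transcription factors of the ZEB, SNAI and TWIST families repress the epithelial genes, many through the E-box CACCTG or its reverse complement CAGGTG. GRHL2, OVOL and ELF3 act on the epithelial side, and the splicing factor ESRP1 keeps many transcripts in their epithelial form. Mammary epithelium itself has luminal cells, marked by KRT8, KRT18 and KRT19, and basal cells, marked by KRT5 and KRT14.

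Levels are log2 values as deposited, after GCRMA, an array method that corrects each probe for its base composition. A gene entered the test where at least 2 of the 8 arrays were at 5 or above, and 10415 genes did. Differences are Hs578T minus BT-20, and a gene was called where limma's adjusted p was under 0.05. Where all 4 arrays of one line lay under 5, the fold is a lower bound with values under 5 raised to it, written "at least". Genes were grouped in 44 lists by function or cell type. Of 732 genes listed, 673 had a probe set of their own and 495 were tested, the others reaching 5 on fewer than 2 arrays or having no probe set of their own. A gene tested only because one line was bright had to differ, so counts over tested members are descriptions, to be read against the share of all genes called. A list's median is of log2 differences, followed where it differs by its value with the bounds. Values are listed in the order M set 1, M set 2, U set 1, U set 2. An array reads the RNA of a whole culture, so fewer cells with a transcript and less of it per cell cannot be told apart.

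The 2 lines differed at most genes. Of the 10415 genes tested, 3583 (34.4%) were called higher in Hs578T and 4191 (40.2%) lower, 74.6% in all. By a log2 difference of 2 or more, 1157 genes (11.1%) were higher and 1005 (9.65%) lower, and 333 were higher and 221 lower by 5 or more. Of the genes tested, 7640 (73.4%) had no overlap between the 4 Hs578T and the 4 BT-20 arrays. Cell line took 95.0% of the variance between arrays, the oligonucleotide 0.669% and the set 1.77%. Correlations over genes were 0.981 to 0.995 among Hs578T arrays and 0.982 to 0.996 among BT-20 arrays, and 0.616 to 0.633 between lines. With calls this frequent, a called gene is the usual case, so the size of a difference is given throughout.

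The scale bears on the smaller differences. The median of 16 genes of basic cell function was 11.30 to 11.46 in Hs578T arrays and 11.83 to 11.99 in BT-20 arrays. Centring each array on it moved the median difference of all genes by 0.53, and the called genes were then 5564 higher and 2527 lower, 68.8% higher against 46.1% without it. The median of those genes' own differences was -0.04. A negative difference of less than 0.53 in size turns positive under that centring, and a positive one grows. M and U arrays of one set and line deviated together (r of 0.599 in Hs578T and 0.595 in BT-20 over 10415 genes), so the p-values, which count them as separate, are too small.

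No gene's line difference passed the test for dependence on the oligonucleotide. The test of whether it differed between M and U called 0 genes by limma, and 260 had an unadjusted p under 0.05. In the ODN arrays, 3190 genes were called higher and 4181 lower of 10136 tested. That fit counted the arrays of ODN2006 and of its control in one line as replicates. Of the 7491 genes called in the M and U arrays that were tested there too, 7323 had the same sign. Among the 2040 of them called by 2 or more, 2039 did. Over all 10415 genes tested in the M and U arrays, whether or not tested in the ODN arrays, the differences had a Pearson r of 0.976. Genes are not independent replicates.

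**Figure D1:**
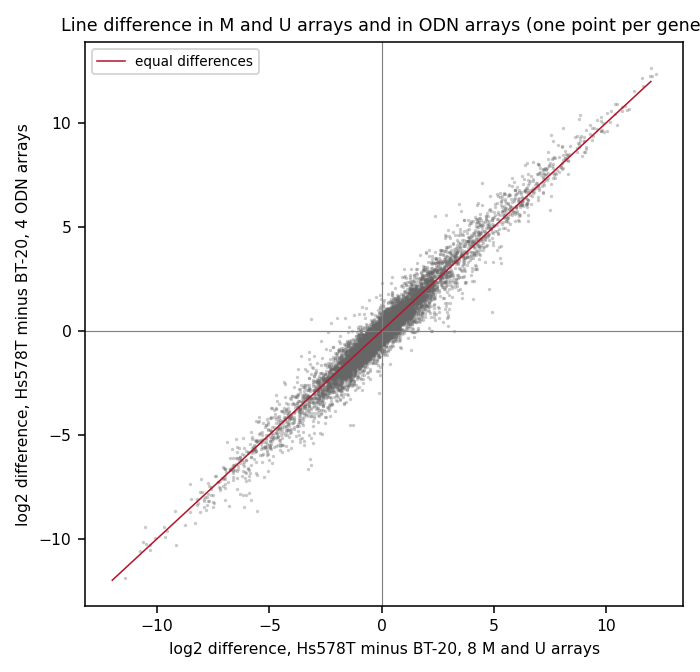
Each point is a gene, with its log2 difference (Hs578T minus BT-20) in the 8 M and U arrays on the x axis and in the 4 ODN arrays on the y axis; the line marks equal differences. The points lie along the line, with an r of 0.976 across genes.

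The labelled lines were checked against cell type markers. All 9 tested luminal markers were lower in Hs578T, and 11 of 11 tested fibroblast markers, such as DCN and THY1, were higher. Over all genes tested 40.2% were lower and 34.4% higher. Of the fibroblast markers, 11 were at 5 or above in all Hs578T arrays and 1 in all BT-20 arrays. Most of them thus entered the test through Hs578T and had to differ. Of the luminal markers, 5 were at 5 or above in all Hs578T arrays and 9 in all BT-20 arrays. The basal list was split, with 5 higher and 3 lower of 9. Among the basal keratins, KRT5 was 2.38, 2.06, 2.05 and 2.07 in Hs578T cells, against 13.06, 12.36, 13.06 and 12.54 in BT-20 cells. KRT14, its usual partner in basal cells, ran the other way, with 12.38, 13.37, 12.51 and 13.29 in Hs578T cells, against 4.37, 3.64, 4.59 and 3.59 in BT-20 cells. KRT5 thus stands with the BT-20 label and KRT14 against it, since Hs578T cells had at least 237-fold more. Type I keratins share sequence, and how far other keratins reach this probe set was not tested. None of the 7 leukocyte and 6 adipocyte markers with a probe set of their own was tested, since none reached 5 in 2 arrays. Of 7 pericyte and smooth muscle markers 4 were higher, among them RGS5.

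The 15 genes with the largest fitted differences in each direction hold collagens and keratins but mostly other genes. These differences run down to values under 5, which are background and have no order, so no rank within the 15 is given, and genes outside them, such as ACTA2 (at least 522-fold higher), can have a larger bound. Upward they include COL3A1, COL6A3 and COL1A2 and the matricellular proteins POSTN, SPARC and CCN2, the last at least 468-fold higher. CCN2, a target of YAP and TAZ, was 14.19, 13.13, 14.43 and 13.74 in Hs578T cells, against 2.26, 2.26, 2.24 and 2.26 in BT-20 cells. GJA1, the gap junction protein connexin 43, was 13.71, 13.24, 13.72 and 13.27 in Hs578T cells, against 2.48, 2.38, 2.38 and 2.56 in BT-20 cells. Neither gene overlapped between lines, and BT-20 cells had no array above 5. Of 5 tested gap junction genes 2 were higher and 2 lower. IGFBP7 and IGFBP3, which bind insulin-like growth factors, were at least 575-fold and 241-fold higher in Hs578T. LDHB, the lactate dehydrogenase subunit of oxidative tissues, was 13.48, 13.76, 13.45 and 13.72 in Hs578T cells, against 3.31, 1.99, 2.90 and 3.39 in BT-20 cells. BT-20 cells thus had no LDHB array at 5 or above, although the enzyme is used in most tissues. EDIL3, an integrin-binding matrix protein, CDH11, a mesenchymal cadherin, TPM2, a muscle-type tropomyosin, LUM, a small proteoglycan, and SDC2, a heparan sulfate carrier, made up the rest.

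Downward, the 15 include the keratins KRT19 and KRT5. VGLL1, a cofactor of TEAD transcription factors, was 2.75, 2.61, 2.57 and 2.65 in Hs578T cells, against 13.76, 13.22, 13.58 and 13.08 in BT-20 cells, at least 339.8-fold lower in Hs578T (adjusted p = 1.5e-08). HSD17B1, which turns estrone into estradiol, was 2.58, 2.20, 2.48 and 2.11 in Hs578T cells, against 12.37, 12.44, 12.44 and 12.53 in BT-20 cells. GJA5, connexin 40, best known from heart and vessels, was 2.78, 2.78, 2.74 and 2.89 in Hs578T cells, against 12.38, 11.52, 12.44 and 11.70 in BT-20 cells. These last genes are not keratins, and all were under 5 in every Hs578T array. The cell-cell adhesion genes CDH1 and EPCAM, the proteases KLK5 and KLK6, the protease inhibitors SPINT2 and CST6, the vesicle SNARE VAMP8 and the calcium binder S100A9 were also among the 15. ALPP, placental alkaline phosphatase, was 2.21, 2.19, 2.18 and 2.21 in Hs578T cells, against 11.84, 9.72, 11.59 and 9.88 in BT-20 cells. Its BT-20 level was higher in set 1 than in set 2. DHRS2, a short-chain reductase, was 4.74, 2.07, 5.53 and 2.01 in Hs578T cells, against 12.77, 12.53, 12.95 and 12.67 in BT-20 cells. Its Hs578T level was also higher in set 1, with 1 array above 5.

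The regulators of the transition differed in both directions. Of 11 tested factors of the EMT list, 10 were higher in Hs578T and 1 lower, with a median log2 difference of 5.43 (3.30 with the bounds) against -0.09 over all genes tested. ZEB1, the zinc finger E-box repressor, was 10.48, 10.36, 10.59 and 10.84 in Hs578T cells, against 2.15, 2.17, 2.15 and 2.13 in BT-20 cells. ZEB2, its paralogue, was 8.67, 8.16, 8.39 and 7.97 in Hs578T cells, against 3.06, 2.96, 2.72 and 2.72 in BT-20 cells. Both were under 5 in every BT-20 array, and ZEB1 was at least 47.4-fold and ZEB2 at least 9.84-fold higher in Hs578T. SNAI2 differed from them, since it was high in both lines: 13.31, 13.16, 13.07 and 13.24 in Hs578T cells, against 11.52, 9.67, 10.66 and 9.61 in BT-20 cells. The SNAI2 difference was 2.83 (SE 0.42, adjusted p = 0.00079), and its BT-20 level was higher in set 1 than in set 2. TWIST1 was at least 31.5-fold higher. TWIST2, which BT-20 also carried, differed by 3.00 (SE 0.18, adjusted p = 9.6e-06). PRRX1, a homeobox factor of limb and craniofacial mesenchyme, was 11.30, 11.42, 11.32 and 11.76 in Hs578T cells, against 2.39, 2.62, 2.64 and 2.63 in BT-20 cells. FOXC2 and FOXF2, forkhead factors of mesoderm, were at least 45.3-fold and 10.2-fold higher. MSX2, a homeobox factor placed on this list, was the exception: 5.59, 4.06, 5.24 and 4.08 in Hs578T cells, against 9.49, 9.61, 9.90 and 9.62 in BT-20 cells.

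Epithelial factors ran the other way, with 10 of 11 lower in Hs578T and a median of -4.17 (-3.65 with the bounds). GRHL2, a grainyhead factor of epithelial junction genes, was 2.49, 2.58, 2.57 and 3.08 in Hs578T cells, against 9.71, 9.52, 9.68 and 9.65 in BT-20 cells. OVOL2, a zinc finger repressor of ZEB1, was at least 8.32-fold lower and EHF, an ETS factor of glands, at least 36.3-fold lower. ELF3, another ETS factor, was 3.86, 4.67, 2.32 and 4.72 in Hs578T cells, against 8.72, 10.31, 10.49 and 10.29 in BT-20 cells, and BT-20 with M in set 1 was the lowest of its line. FOXA1, a luminal pioneer factor, was 3.02, 3.00, 2.98 and 3.03 in Hs578T cells, against 5.36, 7.34, 7.49 and 7.89 in BT-20 cells, again lowest in BT-20 with M in set 1. GATA3, a luminal factor, was measured in both lines and differed by -3.24 (SE 0.09, adjusted p = 2.5e-07). KLF5 differed by -4.17 (SE 0.22, adjusted p = 4.9e-06). TFAP2A was not called, with 10.57 ± 0.23 in Hs578T cells and 10.73 ± 0.03 in BT-20 cells (SD, n = 4 each), while TFAP2C differed by -3.65 (SE 0.10, adjusted p = 1.5e-07).

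Developmental factors of mesoderm and limb were mixed. Of 15 tested, 11 were higher and 4 lower in Hs578T. TBX3, a T-box factor of mammary and limb buds, differed by 3.58 (SE 0.25, adjusted p = 1.8e-05). HIC1 was at least 3.05-fold higher and HMGA2, a fetal chromatin protein, differed by 2.85 (SE 0.29, adjusted p = 0.00012). SOX9, a factor of mammary progenitors and cartilage, was lower in Hs578T with 8.37 ± 0.51 in Hs578T cells and 11.10 ± 0.13 in BT-20 cells (SD, n = 4 each), and so were MEIS2, PBX3 and FOXF1. FOXF1, at 3.83 ± 1.19 in Hs578T cells and 6.79 ± 0.34 in BT-20 cells (SD, n = 4 each), and FOXF2 therefore differed in opposite directions.

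**Figure D2:**
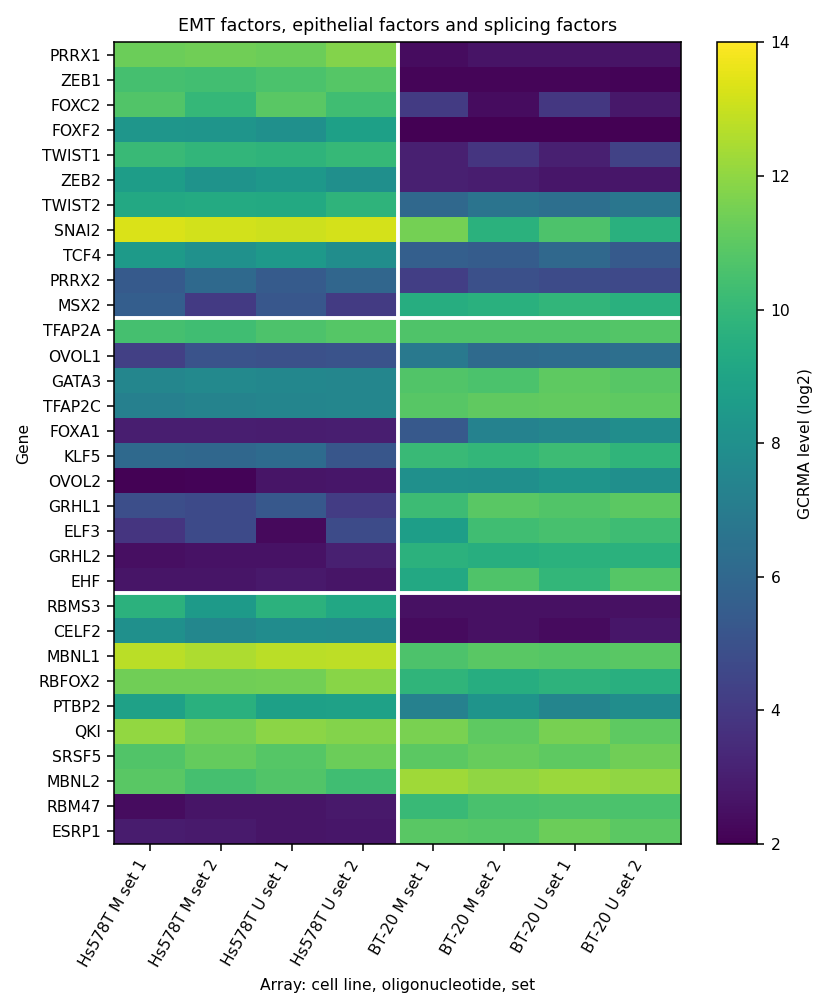
Log2 GCRMA level (colour) of the tested EMT factors, epithelial factors and splicing factors (rows, in 3 blocks from top to bottom, by difference) in each array (columns, Hs578T left, BT-20 right). MSX2 in the first block and TFAP2A in the second stand out from their blocks, and SNAI2 is bright in both lines.

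Splicing regulators differed as well, 5 higher and 3 lower of 10. ESRP1, which promotes epithelial exons, was 2.89, 2.89, 2.70 and 2.71 in Hs578T cells, against 10.94, 10.84, 11.33 and 10.99 in BT-20 cells. RBM47, another epithelial RNA-binding protein, was at least 44.9-fold lower. CELF2 and RBMS3, RNA-binding proteins, were at least 6.99-fold and 19.4-fold higher in Hs578T. RBFOX2, which promotes mesenchymal exons, was present in both lines and differed by 1.85 (SE 0.13, adjusted p = 2.2e-05). MBNL1 differed by 1.90 (SE 0.11, adjusted p = 7.5e-06), and its paralogue MBNL2 by -1.52 (SE 0.16, adjusted p = 0.00014), in the opposite direction. QKI was not called, with 11.80 ± 0.24 in Hs578T cells and 11.29 ± 0.31 in BT-20 cells (SD, n = 4 each). The arrays read the 3′ ends of transcripts, and exon use was not measured.

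Junction and polarity genes of the lists were almost uniformly lower in Hs578T. All 13 tested adherens and tight junction genes of their list were lower by 2 or more, with a median of -5.83 (-4.58 with the bounds). Over all genes tested 40.2% were called lower, and 9.65% by 2 or more. Of this list, 1 gene was at 5 or above in all Hs578T arrays and 13 in all BT-20 arrays. Most of its genes thus entered the test through BT-20 and had to differ. Outside the lists, the junction genes JAM3 and NECTIN3 were higher in Hs578T. Their means were 9.78 and 10.04 in Hs578T cells, against 3.36 and 2.95 in BT-20 cells. Of 23 polarity and apical trafficking genes, 21 were lower, 19 of them by 2 or more, and 1 higher. In that list 6 genes were at 5 or above in all Hs578T arrays and 20 in all BT-20 arrays, so the same limit holds for many. Of 10 desmosome genes, 7 were lower and 1 higher. Promoter sequence was used for 30 of the 41 genes of these lists that were called lower, under 80%, so no share is read from them. Genes on a chromosome that was set aside were left out of the 30. The shares of all genes given below were not restricted in this way, so the sets are not alike. In the 180 bases before a start of transcription, 18 of the 30 held CACCTG or CAGGTG, which are one motif read on either strand, and 8 held it at least 2 times. Of all genes tested with a promoter in the table, 14.0% held it in those bases and 1.29% at least 2 times. Of all genes called lower with a promoter there, 17.0% held it and 2.01% at least 2 times. Lists and motif were chosen with earlier results known, so no enrichment is drawn from the 30 genes. The following show the motif in 3 of the 8, all with 3 or more matches, in RefSeq promoters of GRCh38.p14, 5′ to 3′ along the gene, with the motif in capitals: the tight junction gene CLDN7 (chr17:7262479-7262658, minus strand), the clathrin adaptor gene AP1M2 (chr19:10587313-10587492, minus strand) and the polarity gene CRB3 (chr19:6464091-6464270, plus strand).
CLDN7: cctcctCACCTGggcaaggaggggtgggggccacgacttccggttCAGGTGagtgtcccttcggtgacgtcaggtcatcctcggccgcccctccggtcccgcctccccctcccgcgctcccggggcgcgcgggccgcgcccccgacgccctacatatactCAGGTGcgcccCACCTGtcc
AP1M2: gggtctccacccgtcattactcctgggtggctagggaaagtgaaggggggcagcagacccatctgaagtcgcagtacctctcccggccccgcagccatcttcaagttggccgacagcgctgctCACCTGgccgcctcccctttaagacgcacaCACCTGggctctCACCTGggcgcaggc
CRB3: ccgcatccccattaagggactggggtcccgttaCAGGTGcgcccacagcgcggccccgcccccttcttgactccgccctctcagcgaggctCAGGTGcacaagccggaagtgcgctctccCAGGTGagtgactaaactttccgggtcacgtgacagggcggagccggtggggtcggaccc

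CLDN7 has another start in the table, with no match in the bases before it. Among promoter windows of 250 bases before to 50 bases after the start, 21.21% held the motif for genes called lower in Hs578T (3539 of 4191 genes with a window), 17.97% for all genes tested and 20.59% for all windows in the table. For genes called higher, under 80% had a window, and the share is not given. A match describes these letters and was not tested as a binding site. CLDN7 itself was 2.21, 3.41, 2.09 and 2.18 in Hs578T cells, against 10.32, 10.43, 10.21 and 10.60 in BT-20 cells. AP1M2, the epithelial subunit of the AP-1 adaptor, was 2.57, 2.56, 2.56 and 2.52 in Hs578T cells, against 9.50, 9.24, 9.26 and 9.31 in BT-20 cells, whereas its broadly expressed paralogue AP1M1 was higher in Hs578T, with a difference of 1.82 (SE 0.17, adjusted p = 8.4e-05). CRB3, the apical Crumbs protein, was measured in both lines and differed by -2.37 (SE 0.22, adjusted p = 7.3e-05).

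The classical cadherins differed in opposite directions. CDH1, E-cadherin, was 2.67, 2.66, 2.70 and 2.71 in Hs578T cells, against 12.98, 13.31, 13.24 and 13.33 in BT-20 cells. CDH2, N-cadherin, was 12.24, 11.70, 12.24 and 11.47 in Hs578T cells, against 2.84, 2.77, 2.81 and 2.82 in BT-20 cells. CDH1 was at least 297-fold lower and CDH2 at least 120.5-fold higher. CDH3, P-cadherin of basal mammary cells, was at least 103-fold lower. The tricellular junction protein MARVELD2 and the claudin CLDN4 were at least 8.14-fold and 23.9-fold lower, while CLDN1 was found in both lines, with a difference of -3.45 (SE 0.39, adjusted p = 0.00019). Of the tight junction proteins, OCLN (occludin) was 4.23, 4.38, 4.69 and 3.92 in Hs578T cells, against 10.20, 10.01, 10.20 and 10.14 in BT-20 cells, under 5 in every Hs578T array.

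Genes of apical transport were among the largest differences downward. RAB25, a Rab of recycling endosomes in polarised cells, was 2.16, 2.14, 2.13 and 2.15 in Hs578T cells, against 10.27, 10.36, 10.41 and 10.35 in BT-20 cells. RAB11A, its ubiquitous paralogue, was lower by far less, with a difference of -1.24 (SE 0.09, adjusted p = 1.8e-05). VAMP8 was at least 149.5-fold lower, MAL2, which carries cargo across the cell to the apical face, at least 125-fold and BSPRY at least 15.7-fold. EPS8L2 was at least 18.4-fold lower, whereas EPS8, the actin-capping parent of its family, was higher by 1.95 (SE 0.19, adjusted p = 8.6e-05). RAB27B, a secretory Rab, was the one polarity gene that was higher, with 8.86 ± 0.20 in Hs578T cells and 6.29 ± 1.00 in BT-20 cells (SD, n = 4 each). SYTL2, an effector of Rab27, was not called.

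Desmosomes were only partly lower. PKP2 and PPL (periplakin) were at least 49.6-fold and 27.8-fold lower. DSP, desmoplakin, was measured in both lines, with 8.98 ± 1.12 in Hs578T cells and 11.02 ± 0.18 in BT-20 cells (SD, n = 4 each). DSG2 and PERP were not called, with DSG2 at 9.77 ± 0.23 in Hs578T cells and 9.81 ± 0.09 in BT-20 cells (SD, n = 4 each). DSC3 was called higher, but its Hs578T values lay around 5 and its BT-20 values under it: 5.36, 3.51, 5.61 and 3.80 in Hs578T cells, against 2.85, 2.87, 2.88 and 2.86 in BT-20 cells. The call was lost without BT-20 with U of set 1 (1.71) or of set 2 (1.70). Only the Hs578T arrays of set 1 reached 5, and without either of them DSC3 did not enter the test. Of 6 hemidesmosome and laminin genes 3 were lower and 2 higher. At the basal face, ITGB4, the hemidesmosome integrin, was at least 21.7-fold lower and its partner ITGA6 differed by -3.90 (SE 0.19, adjusted p = 3.3e-06). DST was called higher, by 1.34 (SE 0.18, adjusted p = 0.00041), but its probe set with the largest variance gave a difference of -1.57.

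All 12 tested membrane serine proteases and inhibitors were lower, with a median of -5.86 (-4.30 with the bounds). SPINT1, inhibitor of matriptase, was 3.74, 2.98, 2.92 and 3.01 in Hs578T cells, against 11.07, 10.87, 11.11 and 10.79 in BT-20 cells. SPINT2, its relative, was at least 226-fold lower. ST14, matriptase itself, was 4.85, 3.56, 4.97 and 4.05 in Hs578T cells, against 10.30, 10.23, 10.22 and 10.39 in BT-20 cells. PRSS8, prostasin, which matriptase activates, was at least 9.95-fold lower. Protease and inhibitor were thus both low in Hs578T. KLK5, KLK6 and KLK8, kallikreins of skin shedding and gland secretion, were at least 245-fold, 102-fold and 5.28-fold lower, and SLPI, a secreted elastase inhibitor, at least 52.2-fold.

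Mucins, glycosyltransferases and transport proteins serve the secretory surface of epithelia. Of 7 mucin and glycosyltransferase genes 6 were lower, with a median of -1.96. FUT3, the Lewis fucosyltransferase, was at least 5.14-fold lower, whereas FUT8, which adds core fucose, was higher by 0.76 (SE 0.21, adjusted p = 0.014). Of 9 ion and water transport genes 7 were lower. KCNK1, a potassium leak channel, was 7.27, 5.13, 7.11 and 4.84 in Hs578T cells, against 12.41, 12.24, 12.31 and 12.09 in BT-20 cells. AQP3, a water and glycerol channel, was at least 7.70-fold lower. SLC12A2, the basolateral sodium, potassium and chloride cotransporter, was higher by 0.73 (SE 0.13, adjusted p = 0.0017), and SCNN1A, a subunit of the epithelial sodium channel, was not called.

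Receptor tyrosine kinases fell into opposite groups. Of 8 mesenchymal receptors 7 were higher in Hs578T, with a median of 5.21 (4.56 with the bounds), and of 13 epithelial receptors 11 were lower, with a median of -2.16 (-1.39 with the bounds). PDGFRA, a receptor of platelet-derived growth factor, was 10.88, 10.84, 10.85 and 11.45 in Hs578T cells, against 2.65, 3.09, 2.64 and 2.64 in BT-20 cells. AXL, the receptor of GAS6, was 11.36, 11.59, 11.14 and 11.31 in Hs578T cells, against 4.72, 2.41, 4.37 and 3.76 in BT-20 cells, at least 81.5-fold higher in Hs578T. DDR2, a receptor of fibrillar collagen, was at least 57.8-fold higher. FGFR1 was at least 30.6-fold higher, whereas FGFR2, whose epithelial isoform binds ligands from stroma, was at least 3.92-fold lower. ROR1, a receptor of Wnt5a, differed by 4.17 (SE 0.23, adjusted p = 6.3e-06). IGF1R ran against its list, with 7.40 ± 0.29 in Hs578T cells and 9.87 ± 0.14 in BT-20 cells (SD, n = 4 each).

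EGFR was high in both lines, and higher in BT-20, a line known for EGFR amplification: 10.80, 10.49, 10.78 and 11.11 in Hs578T cells, against 14.24, 14.01, 14.25 and 14.10 in BT-20 cells. The difference was -3.35 (SE 0.13, adjusted p = 1.1e-06). The next 13 tested genes after EGFR in the order of the RefSeq table, up to ZNF273, were all called lower in Hs578T too. The run had a median of -1.42. Over all genes tested 40.2% were called lower, and copy number was not tested. ERBB3, the neuregulin receptor that pairs with ERBB2, was 2.77, 2.91, 2.69 and 2.77 in Hs578T cells, against 9.79, 9.33, 9.61 and 9.47 in BT-20 cells. ERBB2 differed by -2.16 (SE 0.12, adjusted p = 7.6e-06). MET, the hepatocyte growth factor receptor, was high in both lines and differed by -0.65 (SE 0.16, adjusted p = 0.0079), which was not called after housekeeping centring (-0.12). MST1R, its relative RON, was at least 4.94-fold lower. EPHA2 was not called, with 9.43 ± 0.23 in Hs578T cells and 8.82 ± 0.55 in BT-20 cells (SD, n = 4 each), and EPHB4 was higher by 0.88 (SE 0.12, adjusted p = 0.00055).

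Ligands differed in kind between the lines, with 9 higher in Hs578T and 3 lower of 14. TGFA, an EGFR ligand, was 2.35, 2.33, 2.32 and 2.36 in Hs578T cells, against 10.53, 9.32, 10.12 and 9.09 in BT-20 cells. EREG, epiregulin, another EGFR ligand, was at least 31.3-fold lower. HBEGF, also an EGFR ligand, differed the other way, with a difference of 2.92 (SE 0.43, adjusted p = 0.00076), though its BT-20 arrays lay around 5. VEGFC, the lymphatic growth factor, was 10.21, 9.50, 10.33 and 9.95 in Hs578T cells, against 2.58, 2.47, 2.64 and 2.52 in BT-20 cells. FGF2, FGF5 and GAS6 were at least 6.52-fold, 4.56-fold and 6.11-fold higher. VEGFA differed by 2.64 (SE 0.12, adjusted p = 2e-06). PDGFB was at least 1.73-fold lower, PDGFC was higher by 1.22 (SE 0.13, adjusted p = 0.00013) and PDGFA was not called.

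**Figure D3:**
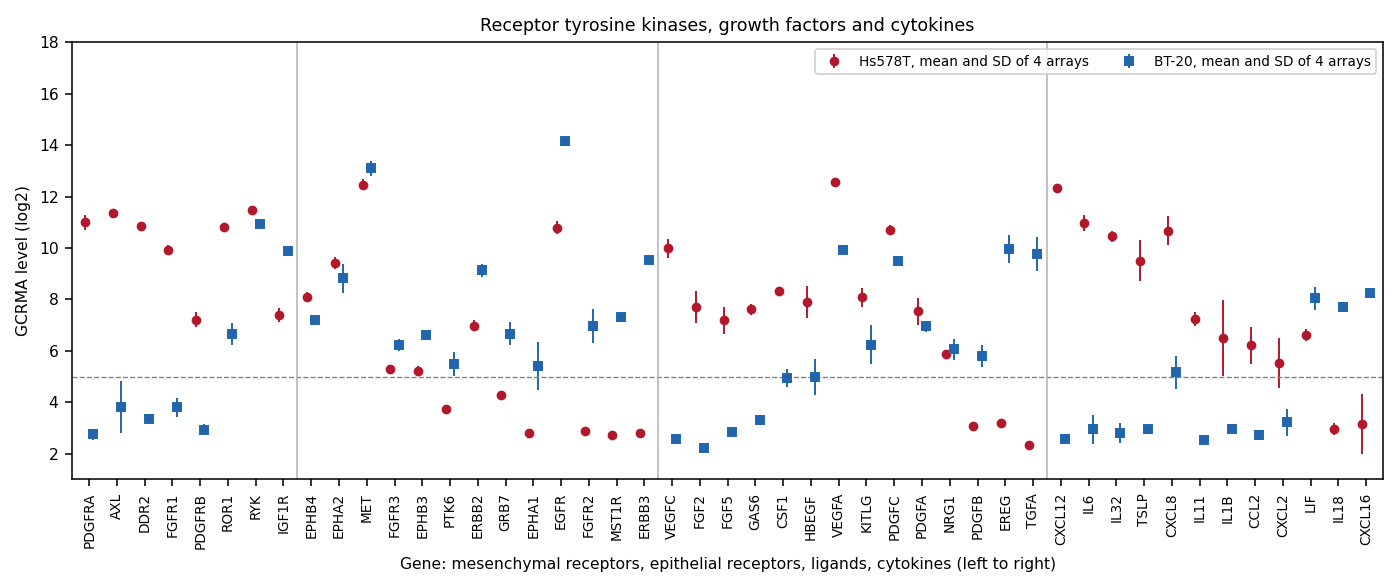
Log2 GCRMA level of tested mesenchymal receptors, epithelial receptors, growth factor ligands and cytokines (4 blocks from left to right), as mean and SD of 4 arrays, red circles for Hs578T and blue squares for BT-20; the dashed line is the level of 5. CXCL12 and VEGFC have BT-20 means under the line, and TGFA and ERBB3 have Hs578T means under it.

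Matrix genes beyond the collagens were among the largest differences upward. Of 17 genes of elastic fibres and crosslinking, 14 were higher and 2 lower in Hs578T, with a median of 3.78. LOX, lysyl oxidase, which crosslinks collagen and elastin, was 12.44, 12.57, 12.53 and 12.56 in Hs578T cells, against 2.71, 2.68, 2.59 and 3.02 in BT-20 cells. FBN1, fibrillin of microfibrils, was at least 241-fold higher, and EFEMP1 and MFAP2, microfibril proteins, at least 130.0-fold and 109-fold. LOXL2 was present in both lines and differed by 3.78 (SE 0.16, adjusted p = 1.6e-06). FN1, fibronectin, was likewise high in both, with 14.71 ± 0.10 in Hs578T cells and 11.82 ± 0.94 in BT-20 cells (SD, n = 4 each). TGM2, a transglutaminase that crosslinks matrix, was at least 3.56-fold lower.

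Hyaluronan and proteoglycan genes were split. Of 25 tested, 16 were higher and 7 lower. VCAN, versican of loose matrix, was 13.13, 12.54, 13.08 and 13.04 in Hs578T cells, against 2.54, 2.63, 2.54 and 2.53 in BT-20 cells. DCN, decorin, was at least 98.8-fold higher. HAS2, the main hyaluronan synthase of mesenchyme, was at least 19.0-fold higher, whereas HAS3 differed by -1.14 (SE 0.17, adjusted p = 0.00075). CEMIP, which degrades hyaluronan, was higher by 8.09 (SE 0.50, adjusted p = 1e-05). The syndecans, which carry heparan sulfate at the cell surface, parted: SDC2 was 12.88, 13.13, 12.88 and 13.07 in Hs578T cells, against 2.61, 2.58, 2.60 and 2.59 in BT-20 cells. SDC1, the epithelial syndecan, was 8.71, 9.42, 8.88 and 9.56 in Hs578T cells, against 11.65, 11.43, 11.65 and 11.59 in BT-20 cells, and SDC4 differed by -1.59 (SE 0.10, adjusted p = 1.2e-05). CD44, the hyaluronan receptor, was not called, with 13.68 ± 0.17 in Hs578T cells and 13.42 ± 0.07 in BT-20 cells (SD, n = 4 each), but 10 of its other probe sets were lower in Hs578T by over 0.5. CHST11, which sulfates chondroitin, was at least 11.3-fold lower.

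All 17 tested genes of matrix proteolysis were higher, with a median of 5.75 (3.73 with the bounds). MMP2, gelatinase A, was 11.34, 11.03, 11.35 and 11.13 in Hs578T cells, against 2.49, 2.37, 2.48 and 2.39 in BT-20 cells. MMP14, which activates MMP2 at the cell surface, was at least 2.39-fold higher. TIMP3 was at least 261-fold higher, whereas TIMP1 and TIMP2 were high in both lines, TIMP2 with 12.13 ± 0.14 in Hs578T cells and 10.40 ± 0.67 in BT-20 cells (SD, n = 4 each). PLAU, urokinase, was 11.21, 10.28, 11.36 and 11.00 in Hs578T cells, against 2.08, 2.27, 2.12 and 2.28 in BT-20 cells. The smallest difference was that of PLAUR, the urokinase receptor, at 0.76 (SE 0.25, adjusted p = 0.029), whose call was lost without BT-20 with U of set 2 or without any one Hs578T array (0.69 to 0.82). It was 0.47 without BT-20 with M of set 2, which kept the call. ADAMTS1 and ADAM12 were at least 81.0-fold and 45.7-fold higher. The tested members of the membrane serine protease list and of this list, which also holds inhibitors and a receptor, lay on opposite sides. Of the former, 0 were at 5 or above in all Hs578T arrays, and of the latter 4 in all BT-20 arrays. Most thus entered the test through one line and had to differ. Outside the lists, the serine protease PRSS21 was higher in Hs578T (mean 9.37 against 2.18) and the metalloprotease MMP15 was called lower.

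Collagens and keratins were split unevenly. Of 23 tested genes of collagen chains 19 were higher, 3 lower and 1 not called. COL15A1, a basement membrane collagen, was at least 7.01-fold lower and COL9A3, a cartilage collagen, at least 13.9-fold lower. COL4A5, of basement membranes, was 6.99, 3.18, 6.94 and 2.95 in Hs578T cells, against 8.05, 8.14, 8.18 and 8.19 in BT-20 cells, with set 1 above set 2 in Hs578T. Its call was lost without any one BT-20 array or without either Hs578T array of set 2 (between -3.15 and -2.13). Of 9 tested keratins of the list 8 were lower, KRT14 being the exception. KRT18 was high in both lines, with 12.79 ± 0.13 in Hs578T cells and 14.90 ± 0.09 in BT-20 cells (SD, n = 4 each), while its partner KRT8 was at 6.73 ± 0.16 in Hs578T cells and 13.36 ± 0.07 in BT-20 cells (SD, n = 4 each).

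Genes of the contractile cytoskeleton were higher in Hs578T. Of 21 genes of actomyosin, intermediate filaments and caveolae, 18 were higher and 1 lower, with a median of 2.14. ACTA2, smooth muscle actin, was 14.06, 13.86, 14.14 and 14.06 in Hs578T cells, against 4.50, 3.90, 4.31 and 3.15 in BT-20 cells. TPM2 was at least 514-fold higher, and CNN1 and MYLK, calponin and the myosin light chain kinase, at least 24.0-fold and 85.5-fold. VIM, vimentin, was the brightest of the list in Hs578T: 15.15, 15.22, 15.25 and 15.34 in Hs578T cells, against 6.84, 6.96, 6.88 and 7.13 in BT-20 cells. The VIM difference was 8.29 (SE 0.10, adjusted p = 6.9e-09). CAV1, caveolin, was high in both lines and differed by 2.14 (SE 0.21, adjusted p = 9.9e-05). CNN3 was called lower, with a difference of -0.80 (SE 0.11, adjusted p = 0.00044), but its probe set with the largest variance gave a difference of 1.16.

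Genes of signalling pathways were called in both directions. In the TGF-beta and BMP pathway 11 of 18 genes were higher and 5 lower. TGFB2 was 10.53, 9.34, 10.84 and 10.20 in Hs578T cells, against 3.77, 3.76, 3.65 and 3.51 in BT-20 cells. TGFB1 differed by 2.15 (SE 0.18, adjusted p = 4.8e-05). TGFBI, a matrix protein named for its induction by TGF-beta, differed by 5.96 (SE 0.17, adjusted p = 2.4e-07). The receptor TGFBR1 differed by -1.46 (SE 0.12, adjusted p = 4e-05) and its effector SMAD3 by -1.18 (SE 0.13, adjusted p = 0.00015). INHBB, the activin B subunit, differed by -2.62 (SE 0.29, adjusted p = 0.00018), while INHBA was not called, with 12.85 ± 0.44 in Hs578T cells and 11.99 ± 0.59 in BT-20 cells (SD, n = 4 each). FST, follistatin, an activin antagonist, was at least 33.4-fold higher.

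The list of YAP, TAZ and their targets showed no common direction, with 4 higher, 6 lower and 8 not called of 18. CCN2 was the extreme, while CCN1, its relative, differed by 1.82 (SE 0.48, adjusted p = 0.012). YAP1 was not called, with 11.78 ± 0.26 in Hs578T cells and 11.57 ± 0.15 in BT-20 cells (SD, n = 4 each), and WWTR1, which encodes TAZ, was higher by 1.55 (SE 0.18, adjusted p = 0.00022). WWC1, the Hippo scaffold KIBRA, was at least 25.0-fold lower. TEAD4 differed by -1.74 (SE 0.16, adjusted p = 7.7e-05). VGLL1, described above, binds the same TEAD partners.

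In the Wnt pathway 13 of 18 genes were higher and 3 lower, most by under 2. DKK3 and WNT5B were at least 62.8-fold and 7.97-fold higher. LEF1, a DNA-binding effector of the pathway, differed by 2.62 (SE 0.13, adjusted p = 3.7e-06). Axon guidance genes gave 12 higher and 6 lower of 20. ROBO1, a receptor of Slit proteins, was 11.70, 12.02, 11.56 and 12.10 in Hs578T cells, against 2.39, 2.47, 2.39 and 2.92 in BT-20 cells. SLIT2, its ligand, was at least 11.1-fold higher. EFNA1, an ephrin bound by EPHA2, was 3.38, 2.88, 3.46 and 2.47 in Hs578T cells, against 9.48, 10.26, 10.02 and 10.31 in BT-20 cells, at least 32.4-fold lower.

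Metabolic genes differed in both directions. GSTP1, a glutathione transferase, was 11.16, 11.02, 11.17 and 10.97 in Hs578T cells, against 4.54, 4.71, 3.27 and 4.12 in BT-20 cells. GSTM3 was at least 24.3-fold higher. AKR1B10, an aldo-keto reductase of epithelia, was 7.04, 7.70, 6.56 and 6.98 in Hs578T cells, against 12.20, 13.38, 12.84 and 13.48 in BT-20 cells, whereas AKR1C1, AKR1C2 and AKR1C3, which share much of their sequence and may not be told apart by these probes, were not called. NQO1, a target of NRF2, was very high in both lines and differed by -1.77 (SE 0.10, adjusted p = 6.7e-06). The list as a whole had no direction, with 5 higher and 7 lower of 17. In the retinoid and steroid list 7 of 10 were lower. RARB, the retinoic acid receptor that is itself a retinoid target, was 8.83, 8.41, 8.71 and 8.45 in Hs578T cells, against 1.60, 1.54, 1.60 and 1.59 in BT-20 cells. ALDH1A3, which makes retinoic acid, differed by -4.02 (SE 0.52, adjusted p = 0.00037), and CRABP2, which carries it to the nucleus, was at least 9.63-fold lower. Of 5 arachidonate and prostanoid genes 3 were higher and 2 lower. PTGES, which makes prostaglandin E2, differed by -5.66 (SE 0.60, adjusted p = 0.00015), and PTGIS, which makes prostacyclin, was at least 29.9-fold higher.

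Of 12 tested cytokine genes 9 were higher in Hs578T and 3 lower, where 34.4% of all genes tested were higher and 40.2% lower. Another 10 of the 22 listed were too dim to test. At 5 or above in all arrays of a line were 8 in Hs578T and 3 in BT-20. Many thus entered the test through one line and had to differ. IL6 was 11.14, 10.76, 11.34 and 10.65 in Hs578T cells, against 3.76, 2.50, 2.77 and 2.75 in BT-20 cells. CXCL12, the ligand of CXCR4, was 12.36, 12.43, 12.23 and 12.34 in Hs578T cells, against 2.59, 2.55, 2.58 and 2.59 in BT-20 cells. CXCL8 differed by 5.51 (SE 0.34, adjusted p = 1.1e-05), and IL32 and TSLP were at least 43.7-fold and 22.7-fold higher. IL18, a cytokine of barrier epithelia, and CXCL16, a membrane-bound chemokine, were at least 6.58-fold and 9.54-fold lower. IL1B varied most within Hs578T: 7.64, 5.52, 7.90 and 4.96 in Hs578T cells, against 2.97, 2.95, 2.82 and 3.08 in BT-20 cells. All 8 arrays carried transfected DNA, which is known to induce such genes, and the part of it in these levels was not tested.

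Complement and coagulation genes gave 7 higher and 4 lower of 12. TFPI, which blocks tissue factor, was 12.44, 12.37, 12.36 and 12.40 in Hs578T cells, against 3.27, 2.86, 2.89 and 2.86 in BT-20 cells. F3, tissue factor itself, was not called, with 10.92 ± 0.69 in Hs578T cells and 10.87 ± 0.67 in BT-20 cells (SD, n = 4 each). TFPI2 ran opposite to TFPI, with a difference of -3.44 (SE 0.34, adjusted p = 0.0001). C1R was at least 26.2-fold higher. CFI, complement factor I, was 2.64, 2.51, 2.49 and 2.72 in Hs578T cells, against 2.56, 7.14, 5.58 and 7.36 in BT-20 cells, with BT-20 given M in set 1 under 5 unlike the other arrays of its line. It was called lower in Hs578T, and the call was lost without BT-20 with U of set 2 (-2.63) or without any one Hs578T array (between -3.13 and -3.01). Of the antigen presentation and interferon list, 8 of 13 were higher, 2 by 2 or more, and B2M was not called, with 14.43 ± 0.04 in Hs578T cells and 14.24 ± 0.04 in BT-20 cells (SD, n = 4 each). HLA-B and HLA-C share much of their sequence, and their probes may not tell them apart. BST2, tetherin, an interferon-induced restriction factor, is not on that list and was 2.02, 2.00, 1.99 and 2.01 in Hs578T cells, against 10.36, 10.16, 10.23 and 10.22 in BT-20 cells. Also outside it, ERAP2, which trims peptides for presentation, was 10.55, 9.97, 10.36 and 9.84 in Hs578T cells, against 3.35, 3.45, 3.35 and 3.47 in BT-20 cells, and the interferon-induced membrane protein IFITM1 was at least 43.3-fold lower.

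Most cell cycle genes were high in both lines. Of 23 proliferation genes 5 were higher and 10 lower, none by 2 or more in either direction, with a median of -0.22, smaller than the shift that centring makes. MKI67 differed by 1.07 (SE 0.11, adjusted p = 0.00014) and CCNE1 by -1.40 (SE 0.15, adjusted p = 0.00017). Of 13 genes of the G1 list, which holds cyclins, their kinases and inhibitors, retinoblastoma proteins, MDM2 and MTAP, 5 were higher and 7 lower. CDKN2B, which encodes the cell cycle inhibitor p15, was 9.36, 8.05, 9.24 and 7.68 in Hs578T cells, against 2.56, 2.49, 2.53 and 2.51 in BT-20 cells. MTAP, which salvages methylthioadenosine, differed by -2.38 (SE 0.22, adjusted p = 7.7e-05). CDK6 was higher by 2.69 (SE 0.17, adjusted p = 1.3e-05).

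Germline and imprinted genes differed gene by gene. Of 8 tested cancer-testis antigens of the list 4 were higher and 2 lower. MAGEA6 and MAGEA12, near-identical cancer-testis antigens that the probes may share, were lower in Hs578T but high in both lines, MAGEA6 with 11.58 ± 0.13 in Hs578T cells and 13.78 ± 0.07 in BT-20 cells (SD, n = 4 each). MAGEC2 was 6.98, 7.95, 7.02 and 7.69 in Hs578T cells, against 2.25, 2.20, 2.24 and 2.22 in BT-20 cells. SSX1 was at least 22.8-fold higher. Outside the list, the cancer-testis gene CTAG2 was at least 17.0-fold higher, whereas MAEL, of the germline piRNA pathway, FMR1NB and PASD1 were at least 18.5-fold, 29.8-fold and 9.83-fold lower. Of 8 imprinted and oncofetal genes 5 were higher. PEG10, a paternally expressed gene derived from a retrotransposon, was 9.27, 10.01, 9.19 and 9.65 in Hs578T cells, against 3.01, 2.99, 2.99 and 3.01 in BT-20 cells, and SGCE, its neighbour in the genome, was higher by 3.24 (SE 0.16, adjusted p = 3.8e-06). CDH5, the cadherin of endothelium, was 2.66, 2.68, 2.62 and 2.66 in Hs578T cells, against 7.29, 9.22, 8.48 and 9.37 in BT-20 cells, the only one of 8 endothelial markers at 5 or above in every BT-20 array. Of the 3 endothelial markers tested, 2 were called higher in Hs578T and 1, CDH5, lower, so the list had no common direction.

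Many genes were present in one line and under 5 in the other. At 8 or above in all 4 arrays of Hs578T and under 5 in all 4 of BT-20 were 257 genes, and 166 genes had the reverse pattern. Among the 257 were CADM1, a cell adhesion molecule, GLIPR1, a glioma-related secretory protein, SULF1, which trims heparan sulfate, and EMP3, a membrane protein, at least 271-fold, 239-fold, 196-fold and 154-fold higher. Among the 166, IRX2, an Iroquois homeobox factor, was 2.18, 2.16, 2.15 and 2.18 in Hs578T cells, against 11.12, 10.24, 10.94 and 10.39 in BT-20 cells.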

How the data were processed

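RNA of Hs578T and BT-20 cells was measured on Affymetrix arrays. The values used are log2 levels as deposited by the authors, who summarised the probes to probe sets with GCRMA in R 2.4 (per the labels' processing notes). Whether all 12 arrays were normalized together is not given in the sources used here. GCRMA places unbound probes near 2 to 3, so levels under 5 are read as background and no fold is drawn from them except as a bound. Array values carry no depth, and precision rests on how many arrays there are.

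Of 54675 probe sets, 41097 had 1 gene, 1801 several and 11777 none in the platform table. Symbols were updated through RefSeq for 41043. A gene is represented by its probe set with the highest mean over the 8 arrays, and 10415 of 19775 genes with a level of 5 in at least 2 arrays were tested. limma 3.58.1 in R 4.3.3 fitted the 4 means of cell line and oligonucleotide (4 residual degrees of freedom), contrasted the lines and adjusted p-values by Benjamini-Hochberg over all genes tested, with a threshold of 0.05. The ODN arrays were fitted apart, with 2 residual degrees of freedom. No pair of arrays was identical. On simulated data for this comparison over 10415 genes, the fit recovered 70% of 100 genes changed by a log2 difference of 1 and 95% of 100 changed by 2. The simulated arrays varied independently and few genes were changed, unlike in the data, so these shares may not hold for the real comparison.

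Set numbers paired the lines only weakly: over 10415 genes the deviations of same-numbered arrays of different lines correlated at 0.096 to 0.13. Within a line they correlated at 0.599 and 0.595, so the effective replicates are nearer to the sets than to the arrays. Gene lists, motif and named genes were chosen with earlier results of these data known. Named are the 15 genes with the largest fitted difference in each direction with the same sign in all pairs, in each list the largest called members and those against its direction, the transcription factors, paralogue pairs, and genes present in one line only. A further 66 of the 238 genes named, such as OCLN, ST14, CRB3, MMP14 and CD44, fall outside this rule and were chosen for their role after their values were seen. JAM3, NECTIN3, PRSS21 and MMP15 were named in addition to the 238, also with their results known, and are not in the single-array check below. Alternatives tried were another filter, probe set rule, scaling, block, moderation, floor and minimum change, subsets of arrays, and leaving out each array.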

Additional observations from a re-analysis of the deposited data

Results flagged for a closer look

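Among the groups of 4 arrays of one line for the genes named, leaving out groups wholly under 5, 17 had 1 array whose gap to the nearest other exceeded Dixon's critical value for 4 samples, taken as a share of the group's range. They are 5.12% of these groups, and chance alone flags about 1 in 20. BT-20 with M of set 1 stood apart from the other 3 arrays of its line for DSP (10.75, below 11.08), ELF3 (8.72, below 10.29), PPL (9.44, below 9.90) and SCNN1A (6.86, above 6.68). BT-20 with M of set 2 stood apart from the other 3 arrays of its line for SPINT2 (12.68, below 12.85). BT-20 with U of set 1 stood apart from the other 3 arrays of its line for FOXF1 (7.29, above 6.65), IGF1R (10.08, above 9.83) and OVOL2 (8.24, above 8.01). Hs578T with M of set 1 stood apart from the other 3 arrays of its line for COL3A1 (14.94, above 14.87). Hs578T with M of set 2 stood apart from the other 3 arrays of its line for MBNL1 (12.53, below 12.77) and VCAN (12.54, below 13.04). Hs578T with U of set 1 stood apart from the other 3 arrays of its line for EPS8 (12.90, below 12.95). Hs578T with U of set 2 stood apart from the other 3 arrays of its line for COL1A2 (14.90, above 14.75), PDGFRA (11.45, above 10.88), RBFOX2 (11.84, above 11.45), SOX9 (7.61, below 8.56) and TWIST2 (9.81, above 9.35). In each bracket the array's level comes first and the nearest of the other levels second. SOX9 in Hs578T and ELF3 in BT-20 had the widest gaps. For all the genes of this paragraph except SCNN1A, the levels of the lines do not overlap. The same holds for 73.4% of all genes tested, and these genes were named with their differences known.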

How the results depend on the processing

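The count of called genes was 8013 with the replicate block of oligonucleotide and set, and it stayed within 1.5 times of 7774 under the other filters, probe set rules and scalings. Leaving out 1 array gave 7243 to 7533 calls (3331 to 3523 higher, 3841 to 4087 lower), the M arrays alone 6020, and the means of M and U per set, an alternative chosen after seeing the data, 6767. Requiring a log2 difference above 1 in the test itself left 3118 calls, 1555 higher and 1563 lower. Housekeeping centring gave 5564 higher and 2527 lower, since it moves every gene by one amount. Under it DSG2 (0.49), SCNN1A (0.46) and TFAP2A (0.37), which were not called before, were higher in Hs578T. The median of a gene's probe sets gave -0.77 for CD44 and 0.18 for CNN3, and the probe set with the largest variance gave -2.54 for CD44, 1.16 for CNN3, -1.57 for DST and -0.50 for YAP1. SYTL2 was lower (-0.57) in set 2 alone. The causes of these reversals were not tested. The interaction of line and oligonucleotide gave 0 calls by limma in all alternatives run. The ODN comparison gave 7366 calls with its replicate block of treatment, 7258 without a filter and 7590 with a trended, robust fit, and 5076 to 6571 with 1 array left out, where the lone array is assumed to vary like the others. Levels under 5 limit all folds against the silent line to bounds.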

Other observations

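Called genes lay side by side in the genome in many places. Of 10397 tested genes placed in the order of the RefSeq table, 1198 lay in 193 runs of at least 4 neighbours all called higher in Hs578T, and 1720 in 270 runs all called lower. Over all tested genes 34.4% were called higher and 40.2% lower, and no test of the number of runs was made. The longest run of lower genes held 28 neighbours from FCSK to TMEM170A, with a median log2 difference of -2.33 and 18 genes lower by 2 or more. It includes SF3B3, a splicing factor subunit, DHODH, of pyrimidine synthesis, BCAR1, an adaptor at focal adhesions, and the tight junction gene MARVELD3. The next held 26 genes from TMEM164 to STAG2, with a median of -1.58. The longest runs of higher genes held 19 neighbours each, DOCK5 to KIF13B with a median of 2.21 and MBD1 to ALPK2 with a median of 1.80.

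Runs in which every gene differed by 2 or more were few, 4 higher and 2 lower. The 6 genes from PSG1 to PSG9, pregnancy-specific glycoproteins of the placenta, were all higher in Hs578T, with a median of 3.86. These genes are near-identical and their probes may share signal. The 5 genes from FAM171B to COL5A2, with TFPI and COL3A1 among them, had a median of 9.40, and the 5 from ZDHHC17 to SYT1 a median of 3.72. Among lower runs, the 4 zinc finger genes from ZNF600 to ZNF702P had a median of -2.69.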
